A study of Mus musculus with 6 samples.

Results

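The genes described here encode the proteins that join cells to each other: claudins, occludin and the Tjp scaffold proteins of tight junctions, connexins of gap junctions, cadherins of adherens junctions, and the desmogleins, desmocollins, plakophilins and plakoglobin of desmosomes. They were taken by gene symbol (Cldn, Gja to Gjd, Tjp, Cdh, Dsg, Dsc and Pkp followed by a number, and Ocln, Jup, Dsp and Cgn), and the endothelial genes Cldn5 and Cdh5 were left out of the set. The array held matched probes for 72 of them among 16358 gene symbols, and none was matched for Dsp or Cgn. Of the 72 genes, 45 were tested, each through a probe that stood well above background on 2 or more of the 6 arrays, among 12968 genes.

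RNA was taken from whole lung of mice on a C57BL/6 background in 3 groups of 2 arrays: hCD2-T-bet tg/tg, which carry the transgene on both alleles, hCD2-T-bet tg/wt, which carry it on one, and wild-type mice without it (WT). T-bet, the product of Tbx21, is a transcription factor of T helper type 1 cells, and the series describes its overexpression in T cells and the pulmonary alveolar proteinosis, a filling of the air spaces with surfactant material, that follows. The transgene is named for CD2, a T cell surface gene, so the junction genes were measured in a tissue most of whose cells are not the T cells it was made for. The labels used here give no age, sex, time point or number of founder lines, and do not say that the 2 arrays of a group came from separate animals. The p-values below therefore measure the spread between arrays, which may be technical.

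Epithelial cells are sealed to their neighbours by tight junctions, in which claudins decide which ions and how much water pass between cells. Cadherins below them hold the cells together through catenins and actin, desmosomes tie the keratin filaments of neighbouring cells, and connexins form channels that let small molecules pass from cell to cell. In the lung these junctions keep fluid out of the alveoli, and endothelium, airway epithelium, mesothelium and the heart muscle sleeves of the pulmonary veins each carry their own set of them.

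Levels are given as log2 of the processed signal minus the 75th percentile of that array, so that 0 is the level of a fairly bright probe. Differences are on the same scale, with their standard error (SE), and a gene was called where limma's p-value adjusted over the 12968 genes was below 0.05. Tbx21 itself read 3.25 and 3.26 on the tg/tg arrays, 1.30 and 1.34 on the tg/wt arrays, and -0.70 and -0.71 on the WT arrays, in the order of the labels. Between 62.0% and 66.8% of the probes of an array were well above background. Replicate arrays correlated at 0.996 to 0.997 over the tested genes, tg/wt with WT arrays at 0.990 to 0.991, and arrays of tg/tg with those of either other group at 0.921 to 0.933. The tg/tg and WT arrays shared slide 1 and the tg/wt arrays lay on slide 2, so that slide and genotype cannot be told apart in any comparison with tg/wt.

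In tg/tg lungs set against WT lungs, 13 of the 45 junction genes were higher and 23 were lower. Over all genes tested, 33.8% were called higher and 40.8% lower, so that 28.9% of the junction genes called higher and 51.1% called lower are to be read against a comparison in which 74.7% of genes changed. The median difference of the 45 genes was -0.21, against -0.05 over all genes. By family, among claudins 4 of 13 were higher and 6 lower, among connexins 6 of 12 were higher and 2 lower, among cadherins 0 of 11 were higher and 10 lower, and among desmosome genes 1 of 5 was higher and 4 lower. Of occludin and the Tjp genes, 2 were higher and 1 was lower. Some genes, among them Cldn2, entered the test only because the tg/tg arrays were bright. Their p-values in comparisons with tg/tg are therefore no independent support for a rise. Cldn1, Cdh2 and Cdh26 were well above background on both WT and both tg/wt arrays and on no tg/tg array. Of the genes called, 11 of those higher and 19 of those lower were above background on at least 1 array of both groups. In bulk lung RNA, fewer cells of a type and less RNA per cell cannot be told apart.

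**Figure D1:**
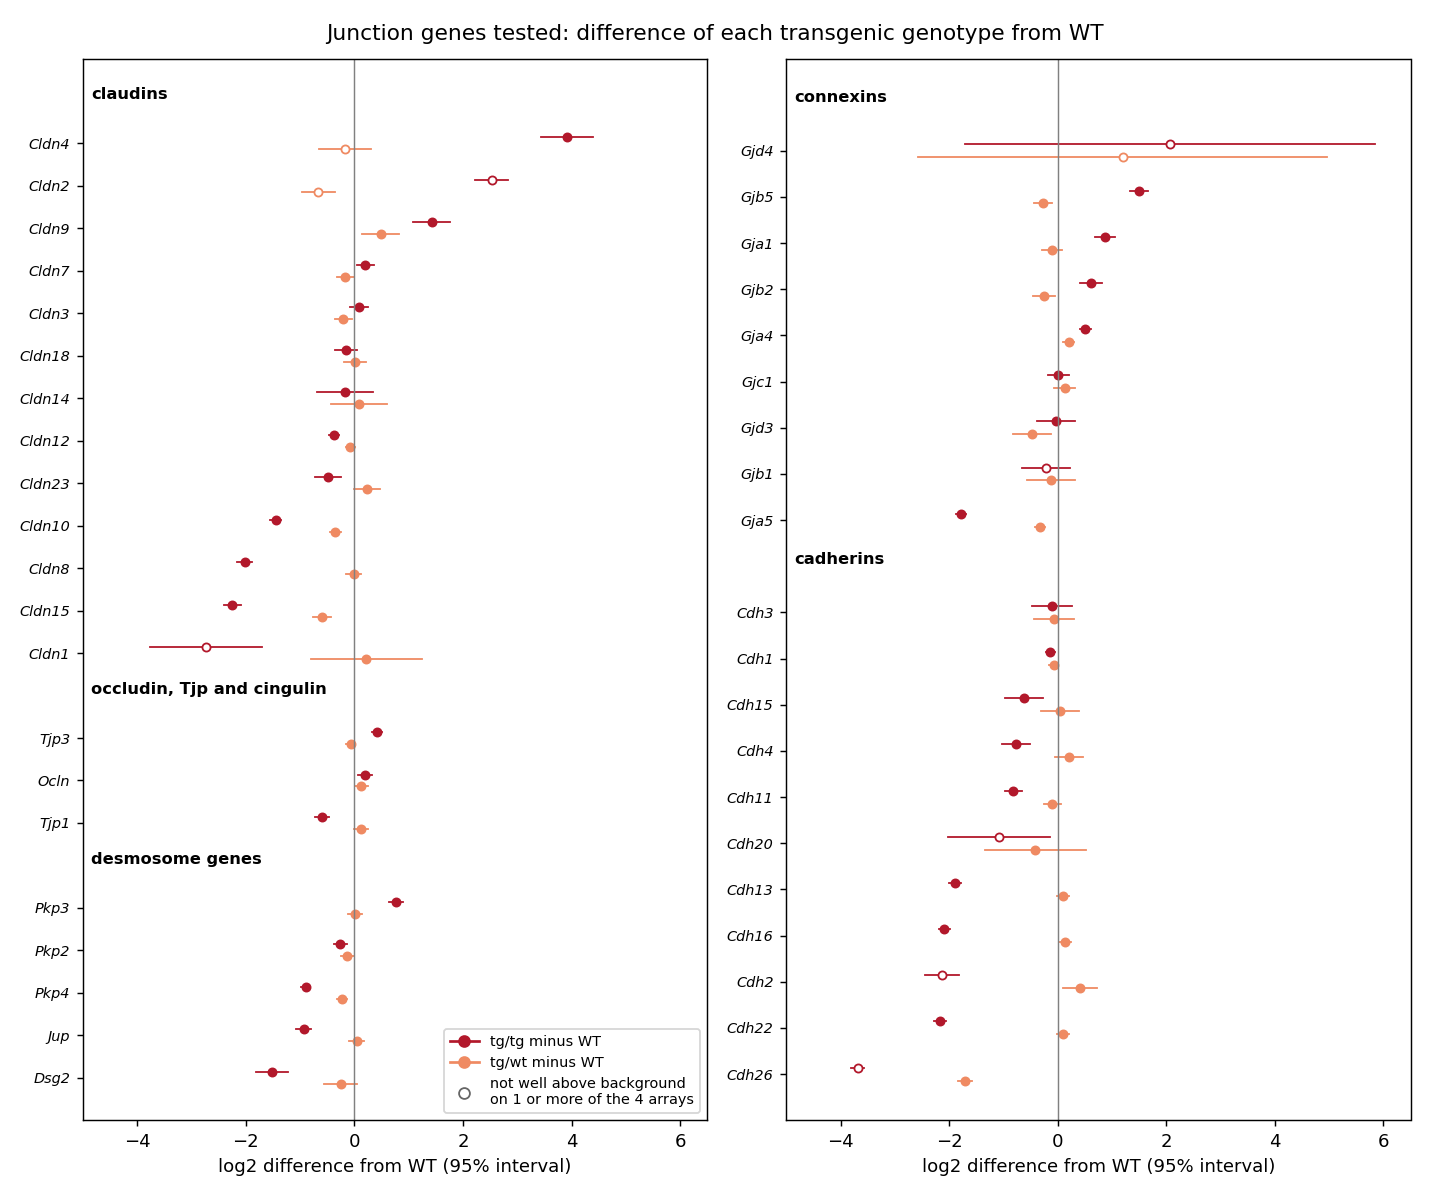
Differences of 41 tested junction genes on the log2 scale, with 95% intervals, for tg/tg minus WT (dark red) and tg/wt minus WT (orange), grouped by family; open symbols mark genes for which 1 or more of the 4 arrays compared were not well above background. Cldn4 lies farthest to the right and Cdh26 farthest to the left for tg/tg against WT, and Cdh26 is the only called gene drawn that lies beyond 1 log2 unit for tg/wt against WT.

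Promoters are shown for Cldn4 and Cldn3, next to each other on chromosome 5 with no other protein-coding gene between them. They are also shown for Cldn2 and Gjb5, which were higher in tg/tg lungs as well. Cldn4 and Cldn3 are shown because only the first was called in tg/tg against WT lungs, and Gjb5 as a connexin called higher in tg/tg lungs. The sequences are 250 bases before to 50 bases after the gene start, from RefSeq on GRCm38.p6, which held an entry for 25 of the 45 tested genes. They come from chr5:134946885-134947184 (minus strand, Cldn4), chr5:134985964-134986263 (plus strand, Cldn3), chrX:139800558-139800857 (plus strand, Cldn2) and chr4:127358115-127358414 (minus strand, Gjb5). Each is written 5′ to 3′ on the gene's own strand. Capitals mark the letters of a TATA box (TATAAA), a T-box half-site (AGGTGT), a GAS element (TTCNNNGAA) or an AP-1 site (TGANTCA) on either strand, and no marked stretches overlap.
Cldn4: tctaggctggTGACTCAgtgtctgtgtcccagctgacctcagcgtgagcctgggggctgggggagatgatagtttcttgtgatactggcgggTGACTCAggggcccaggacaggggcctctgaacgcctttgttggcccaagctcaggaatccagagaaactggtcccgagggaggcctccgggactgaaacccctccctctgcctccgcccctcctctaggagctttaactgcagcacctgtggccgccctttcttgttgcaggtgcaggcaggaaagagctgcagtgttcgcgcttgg
Cldn3: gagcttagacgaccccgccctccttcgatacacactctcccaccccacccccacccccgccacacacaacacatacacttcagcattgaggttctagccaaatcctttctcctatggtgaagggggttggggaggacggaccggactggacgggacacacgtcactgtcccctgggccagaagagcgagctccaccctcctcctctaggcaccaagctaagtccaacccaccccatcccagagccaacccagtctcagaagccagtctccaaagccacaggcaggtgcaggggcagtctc
Cldn2: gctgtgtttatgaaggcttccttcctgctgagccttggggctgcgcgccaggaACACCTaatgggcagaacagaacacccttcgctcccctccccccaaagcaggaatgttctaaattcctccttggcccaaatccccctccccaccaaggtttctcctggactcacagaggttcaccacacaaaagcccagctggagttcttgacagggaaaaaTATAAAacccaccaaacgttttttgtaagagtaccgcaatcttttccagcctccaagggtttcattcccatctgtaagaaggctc
Gjb5: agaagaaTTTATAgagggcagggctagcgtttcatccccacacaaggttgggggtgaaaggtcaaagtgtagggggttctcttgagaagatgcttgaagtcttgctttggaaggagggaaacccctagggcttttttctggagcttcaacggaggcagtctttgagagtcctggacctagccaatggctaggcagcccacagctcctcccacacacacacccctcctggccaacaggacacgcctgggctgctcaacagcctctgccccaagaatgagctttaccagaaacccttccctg
The Cldn4 window held 2 AP-1 matches, at positions -240 and -158 from the gene start, and the Cldn3 window held none of the 4 motifs. The Cldn2 window held a TATA box match at -35 and the reverse complement of the T-box half-site at -197, and the Gjb5 window held the reverse complement of TATAAA at -243. Of 32851 mouse promoters of this length, 7.81% held the AP-1 letters, 13.6% the TATA box, 13.7% the T-box half-site and 8.30% the GAS element. Among 38 promoter entries of the 25 junction genes, some with several entries, 3, 3, 10 and 4 held these 4 motifs in the same order. A match is a description of the letters in the window and was not tested as a binding site.

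Among the claudins, the largest rise was in Cldn4, a sealing claudin of alveolar epithelium known in mice and humans for its increase after lung injury. Cldn4 read -0.99 and -0.97 on the tg/tg arrays, -4.82 and -5.31 on the tg/wt arrays, and -4.76 and -5.03 on the WT arrays. Both tg/tg arrays were far above the other 4, which overlapped each other. The difference from WT was 3.91 (SE 0.185, limma adjusted p = 3.88e-05), or 15.1-fold higher in tg/tg lungs. The WT levels lay near the lowest signals well above background, -5.60 and -5.48 on the WT arrays. The fold of Cldn4 therefore depends on how background was corrected, as given below. Cldn3, its neighbour on the chromosome and a claudin of the same alveolar junctions, read 3.82 and 3.85 on the tg/tg arrays, 3.62 and 3.48 on the tg/wt arrays, and 3.79 and 3.72 on the WT arrays. Its tg/tg levels lay just above WT, and the difference of 0.08 (95% interval -0.08 to 0.24, limma adjusted p = 0.289) was not called. Cldn18, the alveolar claudin most used as a lung marker, was 3.70 and 3.71 on the tg/tg arrays, 3.91 and 3.84 on the tg/wt arrays, and 3.96 and 3.76 on the WT arrays. Levels in tg/tg lay just below the others, with a difference from WT of -0.15 (95% interval -0.35 to 0.05, limma adjusted p = 0.126). Without WT array 2 this difference was -0.26 and passed the threshold (limma adjusted p = 0.0189). Cldn7, found along the sides of many epithelial cells, read 3.86 and 3.90 in tg/tg lungs, against 3.69 and 3.68 in WT lungs, a difference of 0.20 (limma adjusted p = 0.0336). This small rise did not pass the threshold when any 1 of the 4 tg/tg and WT arrays was left out (limma adjusted p = 0.0807 without tg/tg array 1, 0.12 without tg/tg array 2, 0.105 without WT array 1 and 0.114 without WT array 2).

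Cldn2, a pore-forming claudin of leaky epithelia that lets cations and water through, was measured in tg/tg lungs only. It read -3.54 and -3.55 on the tg/tg arrays, -6.57 and -6.89 on the tg/wt arrays, and -6.13 and -6.01 on the WT arrays. The probe was well above background on both tg/tg arrays and on none of the other 4, which all lay lower. It was at least 4.0-fold higher in tg/tg lungs than in WT lungs, where the bound sets the tg/tg mean against the lowest signal well above background on each WT array (limma adjusted p = 3.47e-05). Since the probe entered the test through the tg/tg arrays alone, this p-value is no independent support for the difference. The bound holds for the processed signal and not under the normexp background correction given below. Cldn9, known from the inner ear, where it seals the compartments of the cochlea, read -2.95 and -2.80 on the tg/tg arrays, -3.77 and -3.86 on the tg/wt arrays, and -4.12 and -4.48 on the WT arrays. Both tg/tg arrays were above the rest, and the difference from WT was 1.42 (SE 0.131, limma adjusted p = 0.000423). All 4 of the rises named so far were in the direction of higher tg/tg levels under each alternative setting, but normexp background correction gave smaller differences for the dim ones, 2.09 for Cldn4, 0.77 for Cldn2 and 0.69 for Cldn9.

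The claudins that fell in tg/tg lungs included several best known from intestine, kidney, airway and skin. Cldn15, a cation-pore claudin of the intestine, had -2.14 and -2.13 on the tg/tg arrays, -0.56 and -0.41 on the tg/wt arrays, and 0.15 and 0.08 on the WT arrays. Its groups did not overlap, with tg/tg lowest, tg/wt between and WT highest. It fell by 2.25 from the WT level (SE 0.0609, limma adjusted p = 6.65e-06), or 4.76-fold. Cldn8, a claudin of the distal kidney tubule, read -4.01 and -3.89 on the tg/tg arrays, -1.95 and -1.94 on the tg/wt arrays, and -1.89 and -1.96 on the WT arrays. Here the tg/tg arrays alone stood low and the other 4 overlapped, and the fall was 2.02 (SE 0.054, limma adjusted p = 6.39e-06). Cldn10, a claudin of kidney and airway epithelium that marks club cells in mouse lung, read 0.21 and 0.26 on the tg/tg arrays, 1.35 and 1.32 on the tg/wt arrays, and 1.67 and 1.71 on the WT arrays. Its groups did not overlap either, and it was 2.73-fold lower in tg/tg lungs than in WT lungs (limma adjusted p = 5.93e-06). Cldn1, the barrier claudin of epidermis, was not well above background on either tg/tg array and read -5.84 and -7.04 in tg/tg lungs, against -3.73 and -3.68 in WT lungs, so that it was at least 3.03-fold lower (limma adjusted p = 0.00228). A second probe of Cldn1 went the same way, with a difference of -1.57. Cldn23 and Cldn12, less studied claudins, were lower by 0.49 and 0.38 (limma adjusted p = 0.00682 and 0.000411). Cldn14, a claudin of the inner ear and kidney, differed by -0.17 and was not called (limma adjusted p = 0.468). With normexp background correction the differences from WT of Cldn8 and Cldn1 were -1.14 and -0.59. The bound for Cldn1 therefore holds for the processed signal only.

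**Figure D2:**
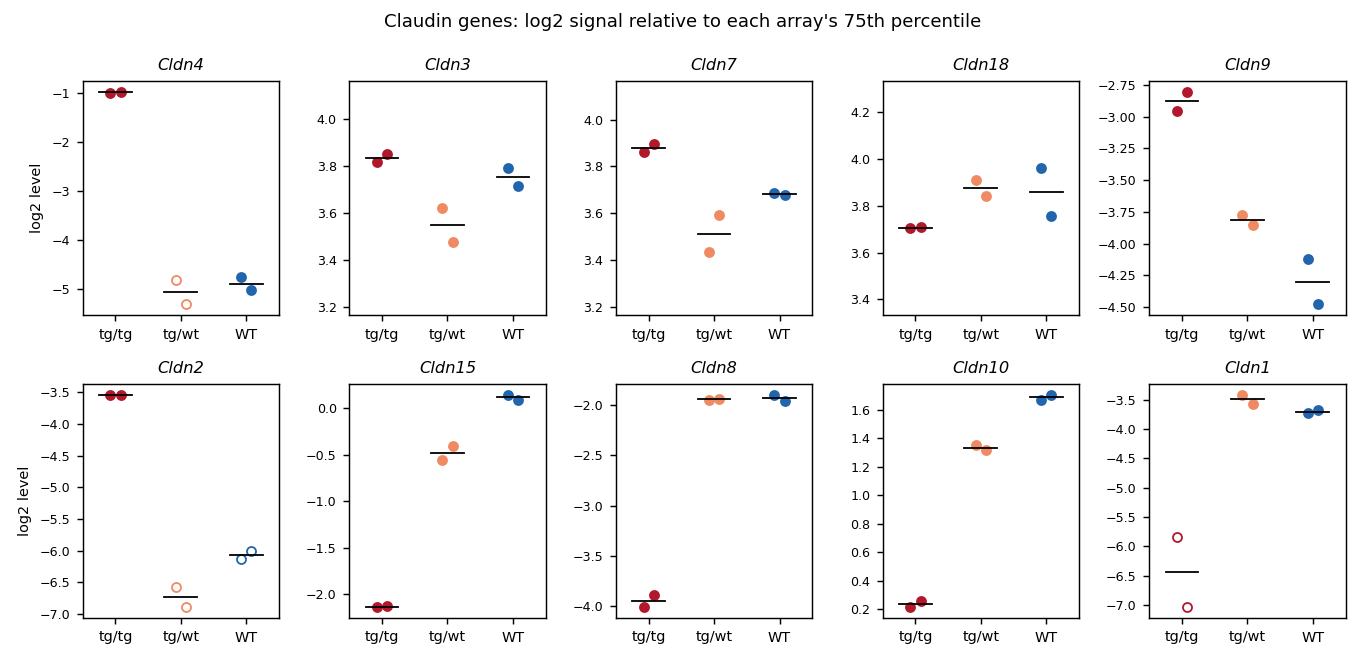
Level of 10 tested claudins on every array, as log2 signal minus the 75th percentile of the array, with tg/tg, tg/wt and WT from left to right; black bars are group means and open circles mark a group with 1 or both arrays not well above background. For Cldn4, Cldn2 and Cldn9 the 2 tg/tg arrays lie above the other 4, and for Cldn15, Cldn8, Cldn10 and Cldn1 they lie below them.

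Occludin, the membrane protein of the tight junction that is not a claudin, and the Tjp proteins, the scaffolds that hold claudins to actin, were called in both directions. Ocln read -0.56 and -0.47 on the tg/tg arrays, -0.57 and -0.61 on the tg/wt arrays, and -0.75 and -0.69 on the WT arrays. Levels in tg/tg exceeded those in WT by 0.20 (limma adjusted p = 0.0157), a rise that did not pass the threshold without tg/tg array 2 or without WT array 1 (limma adjusted p = 0.0561 and 0.0828). Tjp3 was higher, with 1.76 and 1.74 on the tg/tg arrays, 1.26 and 1.27 on the tg/wt arrays, and 1.35 and 1.32 on the WT arrays. Its tg/tg arrays lay above the other 4, with a difference from WT of 0.41 (SE 0.0341, limma adjusted p = 0.00028). Tjp1, the scaffold found in nearly all tight junctions, was lower, with 0.51 and 0.60 on the tg/tg arrays, 1.24 and 1.31 on the tg/wt arrays, and 1.13 and 1.18 on the WT arrays. It was 1.51-fold lower in tg/tg lungs than in WT lungs (limma adjusted p = 0.0003), and its second probe differed by -0.76.

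Among the connexins, 6 of 12 were higher and 2 lower in tg/tg than in WT lungs, against 33.8% and 40.8% of all genes. Gjb5, a connexin best known from skin and placenta, read -2.68 and -2.59 on the tg/tg arrays, -4.31 and -4.46 on the tg/wt arrays, and -4.10 and -4.14 on the WT arrays. Both tg/tg arrays stood apart above the rest, and the difference from WT was 1.49 (SE 0.0643, limma adjusted p = 2.85e-05). Gja4, a connexin of arterial endothelium, read 3.43 and 3.42 on the tg/tg arrays, 3.1 and 3.14 on the tg/wt arrays, and 2.94 and 2.89 on the WT arrays. The tg/tg arrays were highest and the WT arrays lowest, with a difference between them of 0.51 (SE 0.0377, limma adjusted p = 0.000192). With normexp background correction the difference of Gjb5 from WT was 0.73.

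Gja1, the connexin of most cell types and of fibroblasts and airway cells in the lung, read 0.29 and 0.36 on the tg/tg arrays, -0.58 and -0.74 on the tg/wt arrays, and -0.51 and -0.59 on the WT arrays. The tg/tg arrays lay above the other 4, which overlapped, with a difference from WT of 0.87 (SE 0.0695, limma adjusted p = 0.00025). Gjb2, a connexin of epithelium and cochlea, read -1.41 and -1.31 on the tg/tg arrays, -2.32 and -2.14 on the tg/wt arrays, and -1.96 and -2.0 on the WT arrays. It was 1.53-fold higher in tg/tg lungs than in WT lungs (limma adjusted p = 0.00127). Gja5, a connexin of arterial endothelium and atrial muscle, was lower in tg/tg lungs. It had -0.12 and -0.16 on the tg/tg arrays, 1.29 and 1.34 on the tg/wt arrays, and 1.64 and 1.64 on the WT arrays, so that the groups did not overlap and tg/wt lay between. It was 3.43-fold lower in tg/tg lungs than in WT lungs (SE 0.0368 on the log2 scale, limma adjusted p = 3.30e-06), and a second probe had a difference of -1.09. Markers of endothelium and of heart muscle were also lower in tg/tg lungs (11 of 11 and 9 of 9 tested, against 40.8% of all genes). Their part in this fall was not tested. The tested connexins Gjb1 of liver, the widely expressed Gjc1, Gjd3 and Gjd4 were not called, with differences from WT of -0.21, 0.01, -0.04 and 2.07 and limma adjusted p between 0.249 and 0.886. Gjb1 was well above background on 1 of the 2 tg/tg arrays, and Gjd4 on 1 tg/tg and 1 tg/wt array only.

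**Figure D3:**
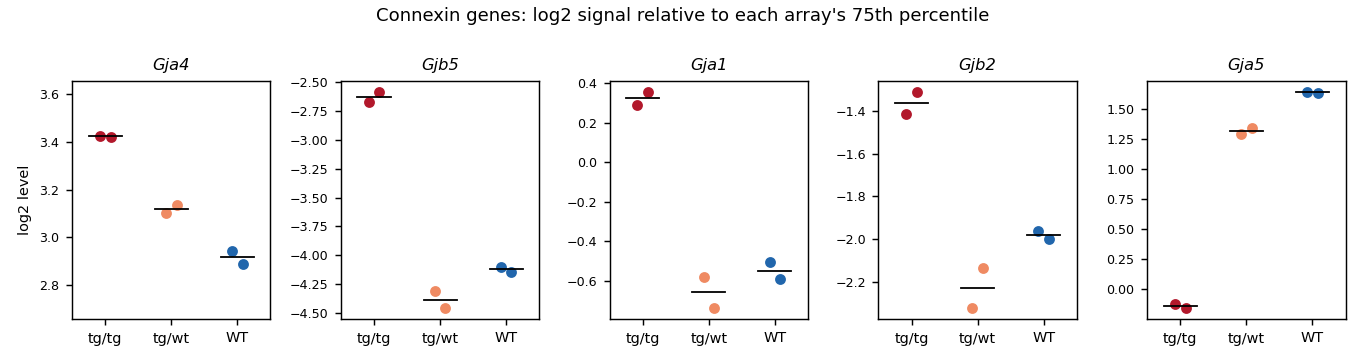
Level of 5 tested connexins on every array, as log2 signal minus the 75th percentile of the array, drawn as for the claudins. The tg/tg arrays lie above the other 4 for Gja4, Gjb5, Gja1 and Gjb2, and below them for Gja5.

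Among cadherins no tested gene was higher in tg/tg lungs and 10 of 11 were lower, against 33.8% and 40.8% of all genes. The calls of Cdh1, Cdh11 and Cdh20 have limits that are given below. Cdh26, a cadherin of epithelium known in humans for its increase in allergic inflammation of the oesophagus, fell the most. It read -6.15 and -6.19 on the tg/tg arrays, -4.20 and -4.19 on the tg/wt arrays, and -2.43 and -2.54 on the WT arrays. The groups were separate and ordered, with the tg/tg arrays not well above background, and the fall to tg/tg was at least 7.06-fold against WT (limma adjusted p = 1.16e-06). Cdh22, a cadherin known from the nervous system, read -3.88 and -3.96 on the tg/tg arrays, -1.64 and -1.68 on the tg/wt arrays, and -1.77 and -1.75 on the WT arrays. Both tg/tg arrays lay far below the other 4, and the level was 4.48-fold lower than in WT lungs (SE 0.0428 on the log2 scale, limma adjusted p = 2.92e-06). Cdh16, the cadherin first known from kidney tubules, had -0.93 and -0.88 on the tg/tg arrays, 1.28 and 1.36 on the tg/wt arrays, and 1.18 and 1.18 on the WT arrays. It was 4.24-fold lower in tg/tg lungs than in WT lungs (SE 0.0416 on the log2 scale, limma adjusted p = 2.99e-06). Cdh13, a membrane-anchored cadherin without the usual cytoplasmic part that binds adiponectin on endothelium and muscle, read 0.81 and 0.86 on the tg/tg arrays, 2.81 and 2.81 on the tg/wt arrays, and 2.76 and 2.68 on the WT arrays. It was 3.70-fold lower (limma adjusted p = 4.12e-06). Cdh2, the N-cadherin of heart muscle, nerve and mesothelium, was not well above background on the tg/tg arrays. It read -6.05 and -5.86 on the tg/tg arrays, -3.27 and -3.56 on the tg/wt arrays, and -3.86 and -3.79 on the WT arrays, and was at least 2.79-fold lower in tg/tg lungs than in WT lungs (limma adjusted p = 6.94e-05).

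Cdh1, the E-cadherin of nearly all epithelia, had the smallest fall of the cadherins called. It read 3.87 and 3.89 on the tg/tg arrays, 3.95 and 3.92 on the tg/wt arrays, and 4.0 and 4.03 on the WT arrays. The tg/tg arrays were lowest, but the fall of 0.13 (limma adjusted p = 0.0173) did not pass the threshold without tg/tg array 1 (limma adjusted p = 0.0575), WT array 1 (0.0618) or WT array 2 (0.0997). Cdh11, a cadherin of fibroblasts, read 0.33 and 0.40 on the tg/tg arrays, 1.13 and 1.03 on the tg/wt arrays, and 1.22 and 1.14 on the WT arrays. It was lower by 0.81 (limma adjusted p = 0.000167), and another probe went the same way (-0.96), but the remaining one was higher by 0.16 (limma adjusted p = 0.0338). Cdh4, the R-cadherin of retina and nerve, Cdh15, the M-cadherin of skeletal muscle, and Cdh20 were lower by 0.76, 0.62 and 1.08 (limma adjusted p = 0.00156, 0.0104 and 0.0421). Cdh20 was well above background on 1 of 2 tg/tg arrays, and its second probe differed by 1.02 and was not called. Cdh3, the P-cadherin of basal epithelia and a neighbour of Cdh1, differed by -0.11 (95% interval -0.47 to 0.26, limma adjusted p = 0.522). Normexp background correction gave differences of -1.24 for Cdh26, -1.24 for Cdh22 and -0.60 for Cdh2. The bounds for Cdh26 and Cdh2 therefore hold for the processed signal only.

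The tested desmosome genes were Dsg2, Jup and 3 plakophilins. Dsg2, the desmoglein of simple epithelia and heart muscle, read -3.14 and -3.43 on the tg/tg arrays, -2.04 and -2.0 on the tg/wt arrays, and -1.68 and -1.86 on the WT arrays. Both tg/tg arrays lay below the others, and it was 2.86-fold lower in tg/tg lungs than in WT lungs (SE 0.115 on the log2 scale, limma adjusted p = 0.000213). Jup encodes plakoglobin, which ties desmosomal cadherins to plakophilins and desmoplakin. It read 0.02 and 0.02 on the tg/tg arrays, 0.95 and 1.06 on the tg/wt arrays, and 0.92 and 0.99 on the WT arrays, with a difference from WT of -0.94 (SE 0.0519, limma adjusted p = 6.80e-05). Of the plakophilins, Pkp3, the form of simple and layered epithelia, rose, and read 2.76 and 2.65 on the tg/tg arrays, 1.96 and 1.95 on the tg/wt arrays, and 1.94 and 1.94 on the WT arrays. The rise over WT was 0.76 (SE 0.0477, limma adjusted p = 0.000103). Pkp4, which lies at both desmosomes and adherens junctions, had 0.95 and 0.94 on the tg/tg arrays, 1.59 and 1.64 on the tg/wt arrays, and 1.84 and 1.84 on the WT arrays. It was 1.87-fold lower (limma adjusted p = 2.02e-05). Pkp2, the plakophilin of simple epithelia and of the heart muscle intercalated disc, was lower by 0.26 (limma adjusted p = 0.00449). With normexp background correction the difference of Dsg2 was -0.85.

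**Figure D4:**
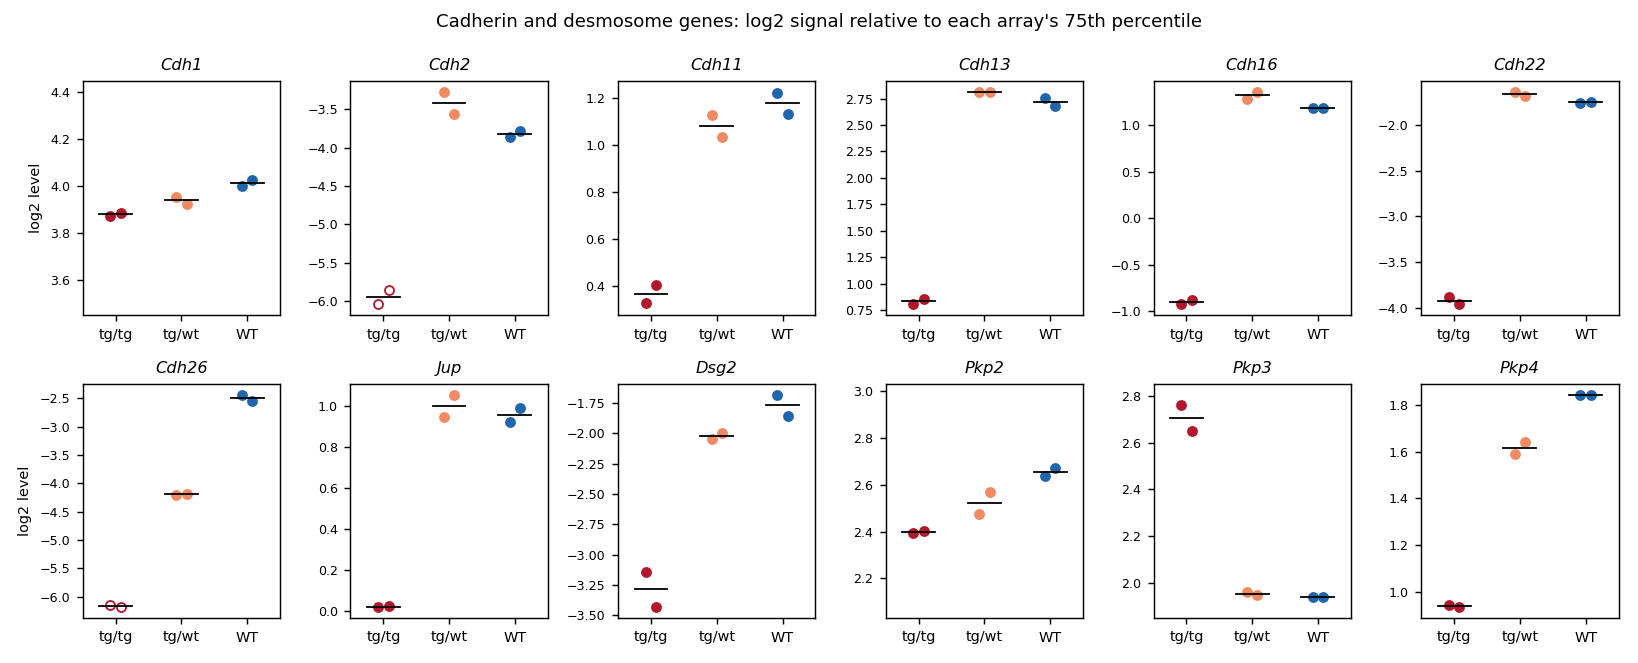
Level of 12 tested cadherin and desmosome genes on every array, as log2 signal minus the 75th percentile of the array, drawn as for the claudins. Cdh26, Cdh2, Cdh22, Cdh16 and Cdh13 lie low on the tg/tg arrays, and Pkp3 lies high on them.

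The other 27 genes of the set gave no level to compare. Of these, 23 were well above background on no array, and 4 on 1 array, among them Cdh6, Cldn19 and Dsg1b. The 27 also included the desmosomal cadherins of layered epithelia (Dsc1, Dsc2, Dsc3, Dsg3, Dsg4) and Pkp1 of skin, the claudins Cldn6, Cldn11, Cldn13, Cldn16, Cldn17 and Cldn34b3, the connexins of lens, brain and other organs (Gja3, Gja6, Gja10, Gjc3, Gjd2), and Cdh7, Cdh8, Cdh12, Cdh17, Cdh23 and Cdh24.

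In tg/wt lungs set against WT lungs, 1 of the 45 was higher and 8 were lower. Of all genes, 13.4% were called higher and 14.6% lower, or 27.9% in either direction, against 20.0% of the junction genes. The comparison shares its WT arrays with the one above, so the values are given side by side without a test of their likeness. Cdh26 fell by 1.71 in tg/wt lungs (limma adjusted p = 0.000279), or 3.27-fold, and its tg/tg level was lower again. Cldn15 fell by 0.60 (limma adjusted p = 0.00455) in tg/wt, and by 2.25 in tg/tg lungs. Cldn10 and Gja5 fell by 0.35 and 0.32 in tg/wt lungs (limma adjusted p = 0.00513 and 0.00594). Pkp4 was lower by 0.23 (limma adjusted p = 0.0131) and Gjb5 by 0.26 (limma adjusted p = 0.0418), and Gja4 was the single gene called higher, by 0.20 (limma adjusted p = 0.0212). Gjb5 was thus lower in tg/wt and higher in tg/tg lungs than in WT lungs, but its tg/wt call was lost under 12 of 19 alternatives (limma adjusted p up to 0.273). Cldn2, also called lower, was not well above background in either group, so no fold is given. The Gja4 call was lost without either tg/wt or either WT array (limma adjusted p up to 0.109), and the Pkp4 call without tg/wt array 1, WT array 1 or WT array 2 (up to 0.0781). Without tg/wt array 1, tg/wt array 2 or WT array 2, 0 junction genes were called higher, and without WT array 1 or WT array 2, 5 were called lower.

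Tg/tg lungs set directly against tg/wt lungs gave 14 junction genes higher and 20 lower, against 34% and 40.2% of all genes tested, or 74.2% in either direction. The tg/tg arrays were the same as above and lie on another slide than the tg/wt arrays. Cldn4 was 17.0-fold higher in tg/tg lungs than in tg/wt lungs (limma adjusted p = 3.69e-05), a fold that rests partly on a signal near background, since its probe was well above background on both tg/tg arrays but on 1 of the 2 tg/wt arrays. Cldn2 was at least 3.94-fold higher (limma adjusted p = 1.85e-05), but its probe entered the test through the tg/tg arrays alone, so this p-value is no independent support. Gjb5, Cldn9, Pkp3 and Tjp3 were higher by 1.75, 0.94, 0.75 and 0.49, with limma adjusted p of at most 0.00209. Cldn3, not called against WT, was higher by 0.28 (limma adjusted p = 0.0107). Lower genes included Cldn1 (at least 3.53-fold), Cdh2 (at least 3.70-fold), Cdh22 (4.79-fold), Cdh16 (4.67-fold) and Cldn8 (4.03-fold), each with limma adjusted p of at most 0.00175. Cldn15, Gja5, Dsg2, Jup, Pkp4 and Tjp1 were lower by 1.65, 1.46, 1.26, 0.98, 0.67 and 0.72, again each called.

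Other genes related to these junctions, called partners here, were counted from lists, and no binding was measured. Their counts are to be read against 33.8% of all genes called higher and 40.8% called lower in tg/tg against WT lungs. In tg/wt against WT lungs these shares were 13.4% and 14.6%. In tg/tg against WT lungs, 4 of 18 tested tight junction partners were higher and 11 lower, including Mpdz (-1.43) and Pals1 (named Mpp5 here, -1.11), scaffold proteins, and Magi3 (-1.04), while the polarity gene Pard6b (0.57) and the membrane proteins Marveld3 (0.65), Crb3 (0.47) and Jam2 (0.41) were higher. Of 9 tested adherens junction partners, 2 were higher and 6 lower. The largest falls were in Nectin3 (-0.84) and Vcl (-0.78), and Nectin1 was also lower (-0.52). The catenins Ctnna1, Ctnnb1 and Ctnnd1, which link cadherins to actin, were lower by 0.68, 0.38 and 0.40. The adhesion genes Nectin2 and Nectin4 were higher by 0.70 and 0.27. Of 9 desmosome partners and keratins, 2 were higher, the simple-epithelium keratins Krt8 and Krt18 (0.50 and 0.41), and 6 were lower. The largest falls were in the keratin Krt5 (-1.26) and in Perp (-1.18) and Evpl (-0.97), both proteins of desmosome plaques or membranes. Of gap junction partners only Panx1, a membrane channel gene of the pannexin family, could be tested, and it was 3.17-fold higher (limma adjusted p = 5.55e-06). In tg/wt against WT lungs, 1 adherens junction partner was higher and 1 lower, 0 tight junction partners were higher and 4 lower, and 0 desmosome partners were higher and 5 lower, among them Krt8 and Krt18 (-0.25 and -0.24).

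Markers of the cell types that carry these junctions also moved between the groups, as sums of linear signal divided by the 75th percentile of the array. Such a sum is carried mostly by the brightest genes of its list. The counts of markers called are to be read against 33.8% of all genes called higher and 40.8% called lower in tg/tg against WT lungs. For tg/wt against WT lungs the shares were 13.4% and 14.6%. Endothelial markers summed to 170.1 and 170.3 on the tg/tg arrays, 376 and 391 on the tg/wt arrays, and 400.3 and 402 on the WT arrays, and 11 of 11 were lower in tg/tg lungs than in WT lungs. Heart muscle markers summed to 14.6 and 14.9 on the tg/tg arrays, 116 and 117 on the tg/wt arrays, and 243 and 239 on the WT arrays, with 9 of 9 tested markers lower in tg/tg lungs than in WT lungs and 9 of 9 lower in tg/wt. These are the cells in which Gja5 is best known, and heart muscle also carries Cdh2, Dsg2 and Pkp2. Gja5, Cdh2, Dsg2 and Pkp2 were called lower in tg/tg than in WT lungs, and the link of these genes to the markers was not tested. Gja4, a connexin of arterial endothelium, was higher by 0.51 in tg/tg than in WT lungs. In tg/wt lungs Cdh2, Dsg2 and Pkp2 differed from WT by 0.41, -0.25 and -0.13 and were not called. Airway markers summed to 425 and 378 on the tg/tg arrays, 678 and 817 on the tg/wt arrays, and 856 and 842 on the WT arrays, with 0 of 9 tested higher and 9 lower in tg/tg lungs, beside the fall of Cldn10. Of mesothelial markers 1 of 5 tested was higher and 4 lower, with Upk3b and Lrrn4 lower by 2.71 and 2.40 and Msln higher by 0.44. Alveolar type 1 markers were lower in 6 of 7 tested genes and summed to 285 and 289 on the tg/tg arrays, 458 and 485 on the tg/wt arrays, and 503 and 497 on the WT arrays. Alveolar type 2 markers, which include the surfactant genes, summed to 1355 and 1201 on the tg/tg arrays, 936 and 1100 on the tg/wt arrays, and 1120 and 1061 on the WT arrays, with 3 of 10 higher and 2 lower, so that the sum in tg/tg lungs was not low. The pan-epithelial markers summed to 186 and 184 on the tg/tg arrays, 127 and 131 on the tg/wt arrays, and 157 and 147 on the WT arrays, with 3 of 9 higher and 3 lower. Those higher were Krt8 and Krt18, the brightest of the list, and Elf3, and those lower were Krt19, Grhl2 and Spint2. Basal and squamous markers, of tissues where Gjb5 is known, summed to 0.485 and 0.434 on the tg/tg arrays, 0.451 and 0.399 on the tg/wt arrays, and 0.878 and 0.888 on the WT arrays, with 1 of 6 tested higher and 3 lower. Leukocyte markers summed to 169 and 171 on the tg/tg arrays, 50.1 and 49.7 on the tg/wt arrays, and 37.6 and 37.1 on the WT arrays, 7 of 7 higher in tg/tg lungs, and 7 of 8 tested macrophage and monocyte markers were higher. Fibroblast and smooth muscle markers were higher in 2 and lower in 6 of 9, and markers of thymus and lymph node stroma higher in 3 and lower in 1 of 4 tested. Ivl, the basal and squamous marker called higher, was not well above background on any WT or tg/wt array, and 1 airway marker was not on tg/tg array 1. The part of these cell types in the changes of the junction genes was not tested.

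**Figure D5:**
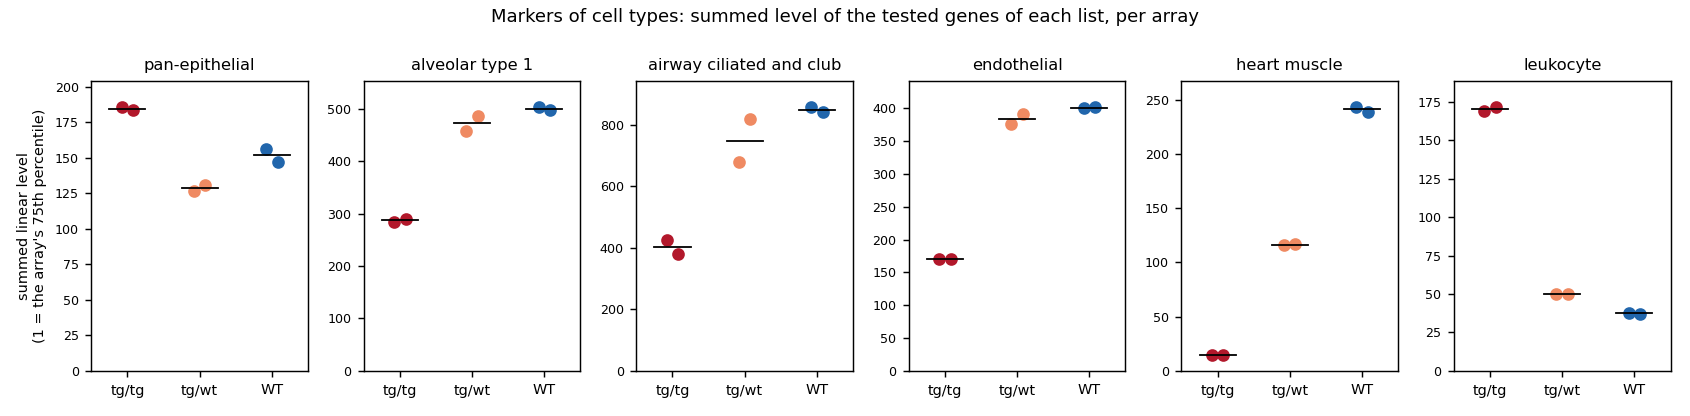
Summed linear signal of cell type marker lists on every array, in units of the 75th percentile of the array, with tg/tg, tg/wt and WT from left to right. The endothelial, airway and heart muscle sums are lowest on the tg/tg arrays and the leukocyte sums highest there.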

How the data were processed

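The RNA of whole mouse lung was labelled with Cy3 and hybridised to 1-colour Agilent arrays of 45018 spots, 2 arrays for each of tg/tg, tg/wt and WT. The intensity values used were the processed signals that the authors deposited as scanner output, made by Agilent Feature Extraction (version 9.5.3.1 per the file headers, 9.1 per the submitters' processing notes). The deposited series table equals the background-subtracted signal of the same scans for all 45018 features (tolerance 1e-04), and was used as an alternative. Control spots and outlier spots were left out, and spots of a probe were averaged. Levels are log2 signal minus the array's 75th percentile (794 to 1204 over the 6 arrays). Of 41174 probes, 22951 were named, through RefSeq accessions, with 16358 symbols. The files hold accessions in place of gene names. A gene is its probe of highest mean, well above background on at least 2 arrays, and no tested junction probe was saturated. Limma 3.58.1 in R 4.3.3 fitted group means over the 6 arrays, with 3 residual and 1.77 prior degrees of freedom, tested on simulated data. The number of arrays limits the precision. "At least" folds set the brighter group's mean against the lowest well-above-background signal. They are bounds for the processed signal only: normexp gave differences smaller than the bounds for Cldn1, Cldn2, Cdh2 and Cdh26.

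Named genes were, per family and comparison, the called members of largest rise and fall, with alveolar and endothelial members added. Some members that entered the counts are not reported here by name. The members and lists were chosen with earlier results of these data known. The labels do not say whether replicate numbers pair arrays. Deviations of same-numbered arrays correlated at -0.05 (tg/tg with tg/wt), -0.05 (tg/tg with WT) and 0.13 (tg/wt with WT). These values cannot show whether same-numbered arrays were handled together. Alternatives covered scaling, probe filter, background correction (normexp, offset 50, on the median signal), source table, floor, probe choice and variance trend. They also covered the groups fitted, slide 1 alone, a replicate block and each array left out. Slide 1 alone applies to tg/tg against WT only. It held no block term, so it repeats the fit of these 2 groups and is no test of slide. Its 32 values among the single-gene values recomputed are no separate check. The promoter sequences are from RefSeq GRCm38.p6.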

Additional observations from a re-analysis of the deposited data

How the results depend on the processing

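No result reversed under any alternative run. The 31 single-gene calls lost and 1 gained, of 1140 recomputed, included those of Cldn7, Ocln, Cdh1, Pkp4, Gja4, Gjb5 and Cldn18. In tg/tg against WT lungs the junction genes numbered 11 to 13 higher and 21 to 23 lower when each array was left out, and in tg/tg against tg/wt lungs 13 higher and 20 to 21 lower. The count of 1 gene higher in tg/wt than in WT lungs was the least stable: it was 4 under quantile normalization, 3 under both normexp settings, a floor on low values and an intensity trend, and 2 without a filter, with the filter on all 6 arrays and with the 2 groups fitted alone. It was 0 to 2 when each array was left out, and 0 with the replicate block. Of genes lower in tg/wt than in WT lungs, 5 to 8 were called when each array was left out, with 5 without WT array 1 and 5 without WT array 2. Over all genes, those called in tg/wt against WT numbered 3619, and 2408 without a filter. They numbered 1397 to 3472 when each array was left out, with 1807 without tg/wt array 1, 1464 without tg/wt array 2, 1397 without WT array 1 and 1472 without WT array 2. The replicate block gave 13 higher and 22 lower junction genes in tg/tg against WT, 7 lower in tg/wt against WT, and 13 higher and 20 lower in tg/tg against tg/wt. It ended the Gja4 call (limma adjusted p = 0.0506) and the Gjb5 call (0.0766) in tg/wt against WT. The labels do not say whether same-numbered arrays were handled together, so these calls are given with and without the block. Slide and genotype cannot be told apart in the comparisons with tg/wt. Dim genes are limited by signal over background: normexp with an offset of 50 compresses their differences, while the side of the threshold stayed the same for the named genes of tg/tg against WT lungs. The cause of the other moved counts was not tested.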
